A study of Mus musculus with 6 samples.

Results

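The transcription factors of the lateral plate and the cardiac mesoderm (10 genes of the 23353 listed) were followed in day 4 embryoid bodies (EBs), floating aggregates in which mouse embryonic stem cells (mESCs) differentiate. The factors were taken by name: Hand1, Hand2, Mesp1, Gata4, Gata6, Isl1, Nkx2-5, Mef2c, Tbx3 and Tbx20. Wildtype EBs came from the parental W9.5 mESC line. EVX1-Δfs EBs came from clone 14, 1 CRISPR-Cas9 edited clone of the same line, which carries small frameshift deletions in both alleles within the second exon of Evx1, in the part that encodes the homeodomain. Both lines were grown in serum without LIF for 4 days, and 3 differentiations per genotype were sequenced, each pair started together on its own day. A result for 1 clone cannot be told apart from a property of that clone.

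Lateral plate mesoderm leaves the primitive streak during gastrulation and gives rise to the heart, the limb mesenchyme and, with extraembryonic mesoderm, to blood and vessels. MESP1 marks the earliest cardiovascular progenitors, the bHLH factors HAND1 and HAND2 act in lateral and cardiac mesoderm, and GATA4, GATA6, ISL1, NKX2-5, MEF2C and TBX20 form the transcriptional core of cardiac progenitors and early heart muscle. TBX3, a T-box repressor, acts in the cardiac conduction system and the limb, and is also known in naive pluripotent cells. GATA4 and GATA6 are also factors of extraembryonic endoderm, and HAND1 of trophoblast giant cells.

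Between 7597879 and 9914471 reads were assigned to genes per library, and 15998 to 16479 genes had at least 1 read. The nuclear ribosomal gene Rn45s took 1.87% to 4.95% of them. Values are normalized counts, that is, reads per gene divided by 1 factor per library. Evx1 itself was at 2311 ± 119 (SD, n = 3) in the wildtype and 2294 ± 258 in the EVX1-Δfs group. Reads per gene do not show a frameshift, so this value is no check of the genotype.

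In EVX1-Δfs EBs, Hand1, Mesp1 and Tbx3 fell to 40.5%, 49.8% and 59.9% of their wildtype means. Isl1, Gata4 and Gata6 had lower means that did not pass the test. Hand2 and Tbx20 had slightly higher means with overlapping groups, and Nkx2-5 and Mef2c were too low to test. Of the 8 factors tested (those with 10 or more normalized reads in 3 or more libraries), 3 were called lower and 0 higher by limma at an adjusted p under 0.05, against 2.95% lower and 2.08% higher among all 13136 genes tested. At an unadjusted p under 0.05, 6 of the 8 were lower and 0 higher, against 12.4% lower and 10.7% higher among all genes tested. On the recovered reads, DESeq2 and edgeR each called 3 lower and 0 higher, against 4.45% and 2.44% of all genes in DESeq2 and 2.91% and 2.39% in edgeR. The median log2 fold change was -0.55 over these 8 factors and 0.00 over all genes tested. The study names Hand1, Mesp1 and Tbx3 from these same libraries, so these 3 calls are not independent evidence of a direction. In bulk RNA, fewer cells of a type and less RNA per cell cannot be told apart.

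**Figure D1:**
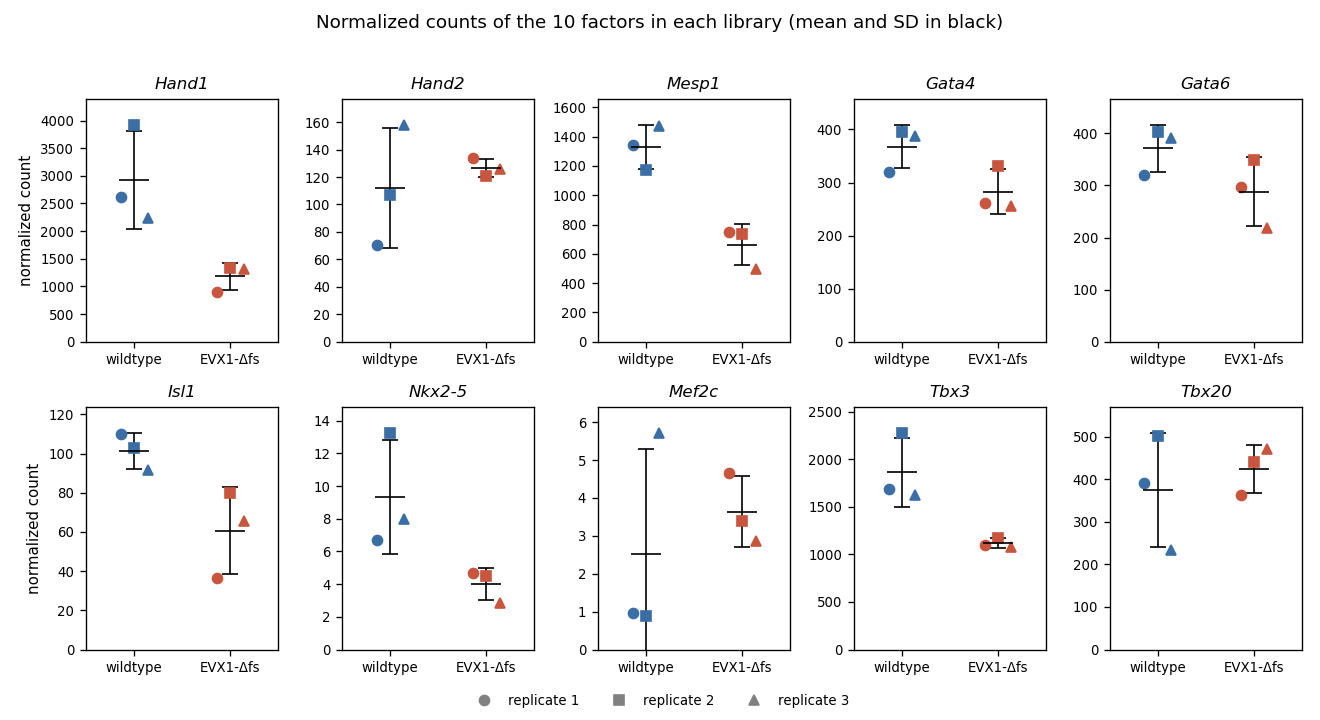
Normalized count (vertical axes, each from 0) of the 10 factors in wildtype (blue) and EVX1-Δfs (red) libraries, with symbols for replicates 1 to 3 and the mean and SD (n = 3) in black, cut at 0 for Mef2c. Hand1, Mesp1, Tbx3, Isl1 and Nkx2-5 (too low to test) were lower in every EVX1-Δfs library than in any wildtype library, and the groups overlapped for the other 5. Of all genes tested, 14.7% were lower without overlap.

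Hand1 and Mesp1, the factors of nascent mesoderm, had the largest called fold changes of the 10. Hand1 (chromosome 11, 57642207 to 57646320, minus strand, NCBIM37) counted 2622, 3922 and 2232 in the wildtype libraries (replicates 1, 2 and 3, the order used throughout) and 900.0, 1332 and 1323 in the EVX1-Δfs libraries. The highest EVX1-Δfs library thus lay well under the lowest wildtype library, although the wildtype libraries themselves were spread widely (SD 885 around a mean of 2925). On the log2 scale the fold change was -1.28 ± 0.17 (SE), with a 95% interval from -1.63 to -0.94, and limma gave an adjusted p of 9.4e-05. Hand1 was lower in each of the 3 same-numbered pairs, by log2 differences of -1.54, -1.56 and -0.75.

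Mesp1 (chromosome 7, 86937127 to 86938674, minus strand) counted 1346, 1173 and 1473 in wildtype and 751, 736 and 499 in EVX1-Δfs libraries. Every EVX1-Δfs library was again under every wildtype library, with similar spreads (SD 150 and 141). Its log2 fold change was -1.02 ± 0.14 (SE), with a 95% interval from -1.31 to -0.73, and limma gave an adjusted p of 1.8e-04. The third pair differed the most for Mesp1, by -1.56 against -0.84 and -0.67 in the others, whereas for Hand1 it differed the least.

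Tbx3 (chromosome 5, 120120678 to 120134733, plus strand) counted 1690.5, 2279.5 and 1621 in wildtype and 1104, 1173 and 1074 in EVX1-Δfs libraries. The EVX1-Δfs libraries were close together (SD 50.8 around 1117) and all below the wildtype libraries. On the log2 scale the fold change was -0.72 ± 0.12 (SE), with a 95% interval from -0.98 to -0.46, and limma gave an adjusted p of 0.0018. By the annotation (GENCODE vM1) 115 exon bases of Tbx3 overlap Gm2301 on the opposite strand. Whether the libraries kept strand is not given in the sources used here, so reads in those bases are uncertain.

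Among the cardiac progenitor factors, Isl1 (chromosome 13, 117088478 to 117099896, minus strand), a LIM-homeodomain factor of the second heart field, was the nearest to the threshold. It counted 110.0, 103 and 91.6 in wildtype and 36.4, 80.1 and 65.7 in EVX1-Δfs libraries. The groups did not overlap, but the EVX1-Δfs libraries were spread over a wide range, with replicate 1 the lowest. On the log2 scale the fold change was -0.80 ± 0.24 (SE), with a 95% interval from -1.29 to -0.30, and limma gave an adjusted p of 0.053. Without EVX1-Δfs replicate 2 the value was -1.03 (adjusted p 0.035), whereas leaving out EVX1-Δfs replicate 1 gave -0.47 (adjusted p 0.244).

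Gata4 (chromosome 14, 63817759 to 63890529, minus strand), a zinc-finger factor, counted 320.5, 396 and 387 in wildtype and 262, 332 and 255 in EVX1-Δfs libraries. The second EVX1-Δfs library lay above the first wildtype library, so the groups overlapped by 1 library. Its log2 fold change was -0.38 ± 0.14 (SE), with a 95% interval from -0.67 to -0.09, and limma gave an adjusted p of 0.11. Gata6, its close relative, counted 319.5, 403 and 392 in wildtype and 297, 349.6 and 218 in EVX1-Δfs libraries. Its log2 fold change was -0.38 ± 0.16 (SE), at an adjusted p of 0.15 in limma and a 95% interval from -0.71 to -0.06. Without EVX1-Δfs replicate 3 the value of Gata6 was -0.20 at an adjusted p of 0.56. Both GATA genes were lower in all 3 same-numbered pairs, by -0.25 to -0.60 for Gata4 and by -0.11 to -0.84 for Gata6. By the same annotation, 58 exon bases of Gata6 overlap 1010001N08Rik on the opposite strand, with the same limit as for Tbx3.

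Hand2 (chromosome 8, 59799780 to 59803314, plus strand), the close relative of Hand1, was not called. It counted 70.8, 107 and 158 in wildtype and 134, 121 and 126 in EVX1-Δfs libraries. The wildtype libraries ran from below to above all the EVX1-Δfs libraries, and only the wildtype group was spread widely (SD 43.8 against 6.46). On the log2 scale the fold change was 0.25 ± 0.22 (SE), with a 95% interval from -0.20 to 0.70, and limma gave an adjusted p of 0.52. Its sign rested on wildtype replicate 1, without which it was -0.04. Tbx20 (chromosome 9, 24527648 to 24578746, minus strand), a T-box factor of the developing heart, counted 391, 501 and 235 in wildtype and 362, 441 and 471 in EVX1-Δfs libraries, so that the EVX1-Δfs range lay inside the wildtype range. Its log2 fold change was 0.24 ± 0.19 (SE), with a 95% interval from -0.15 to 0.62, and limma gave an adjusted p of 0.48, and it was -0.07 without wildtype replicate 3.

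Nkx2-5 (chromosome 17, 26975609 to 26978510, minus strand), the homeodomain factor of cardiac progenitors, had 7, 15 and 7 reads in wildtype and 5, 4 and 3 reads in EVX1-Δfs libraries. Its normalized counts were higher in every wildtype library (6.70 to 13.3) than in any EVX1-Δfs library (2.86 to 4.67), which gives an exact permutation p of 0.1, two-sided, the smallest that 3 against 3 allows. Mef2c (chromosome 13, 83643033 to 83806684, plus strand), a MADS-box factor of heart and skeletal muscle, had 1, 1 and 5 reads in wildtype and 5, 3 and 3 in EVX1-Δfs libraries, and no difference was detectable at this depth. In a limma fit over all genes with any read, Nkx2-5 had a difference of -1.01 on the log2 scale at an adjusted p of 0.24, and Mef2c one of 0.65 at an adjusted p of 0.57.

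**Figure D2:**
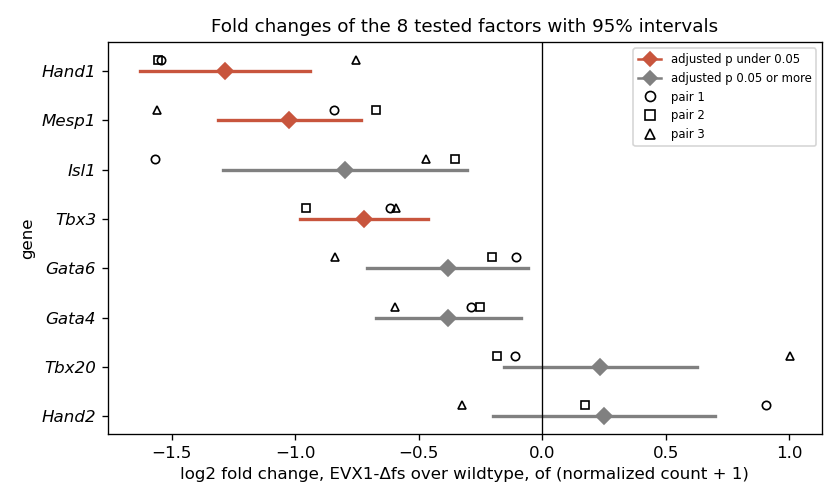
Log2 fold change of EVX1-Δfs over wildtype, on the log2(normalized count + 1) scale (horizontal axis), for the 8 tested factors. Diamonds and lines give the limma estimate and its 95% interval, red where called and grey where not, and open symbols give the difference in each same-numbered pair. Hand1, Mesp1 and Tbx3 (called) and Isl1, Gata4 and Gata6 (not called) lie to the left of 0 with their intervals and all 3 pairs. The intervals of Hand2 and Tbx20 include 0. Of all genes tested, 23.2% were lower in all 3 same-numbered pairs.

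Counted over the tested factors, the groups did not overlap for 4 of 8 (Hand1, Mesp1, Tbx3 and Isl1), all lower in EVX1-Δfs EBs, against 14.7% of all genes tested. EVX1-Δfs EBs had the lower value in all 3 same-numbered pairs for 6 of 8, against 23.2% of all genes tested.

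Within families, members were set against each other inside each library, which takes library depth out of the value. The log2 ratio of Hand1 over Hand2 was 5.19, 5.18 and 3.81 in wildtype and 2.74, 3.45 and 3.38 in EVX1-Δfs libraries. All 3 EVX1-Δfs ratios were below the wildtype ratios, with means of 3.19 and 4.73. The log2 ratio of Tbx3 over Tbx20 was 2.11, 2.18 and 2.78 in wildtype and 1.60, 1.41 and 1.19 in EVX1-Δfs libraries, again without overlap. For both ratios the exact permutation p was 0.1 (two-sided), the smallest this design allows, and 0.15 after adjustment over the 3 ratios compared. Gata4 over Gata6 stayed near 0 in wildtype, from -0.03 to 0.00, and ran from -0.18 to 0.23 in EVX1-Δfs libraries, with an exact permutation p of 1.00.

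**Figure D3:**
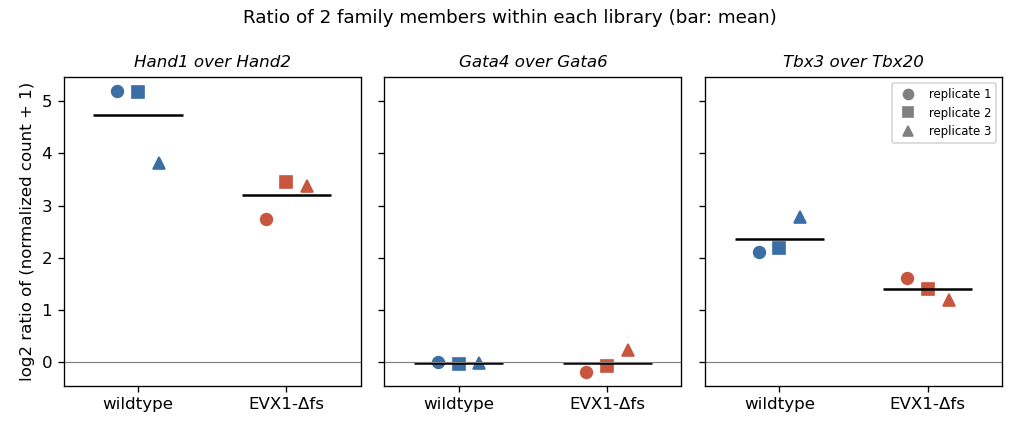
Log2 ratio of the (normalized count + 1) values of 2 family members (vertical axis, shared) in each wildtype (blue) and EVX1-Δfs (red) library, with bars at the group means. Hand1 over Hand2 and Tbx3 over Tbx20 were lower in all 3 EVX1-Δfs libraries than in the wildtype libraries, and Gata4 over Gata6 lay near 0 in both groups.

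To compare levels between genes, normalized counts were divided by the annotated exon length in kilobases. In wildtype EBs, Hand1 had the highest level per kilobase (1465 ± 443, SD, n = 3), followed by Mesp1 (1044 ± 118), whose upper value of 1155 exceeded the lower value of 1118 of Hand1. Tbx3 followed at 347 ± 67.4 and overlapped neither neighbour. Gata6 (116 ± 14.1), Gata4 (94.0 ± 10.5), Tbx20 (83.6 ± 29.8), Hand2 (50.1 ± 19.6) and Isl1 (40.2 ± 3.67) formed a chain in which each overlapped the next. Nkx2-5 (6.12 ± 2.28) and Mef2c (0.341 ± 0.375) lay below all of these. By mean level per kilobase over the 6 libraries, Hand1 stood above 96.7% and Mesp1 above 95.3% of the tested genes with an annotated length, and Isl1 above 33.4%.

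In EVX1-Δfs EBs the order of the first 3 was kept, and Hand1 (593 ± 124 per kilobase) and Mesp1 (519 ± 111) still overlapped. Tbx20 moved from place 6 to place 4, at 94.5 ± 12.5 per kilobase, but its range of 80.6 to 105 overlapped those of Gata6 (68.3 to 109) and Gata4 (65.3 to 84.8). Hand2 at 56.7 ± 2.89 now lay apart from Isl1 at 24.0 ± 8.81.

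**Figure D4:**
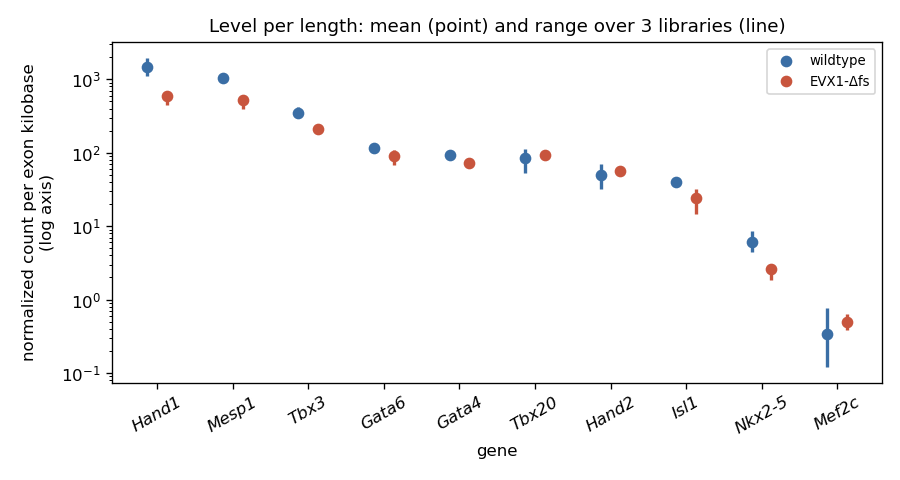
Normalized count per exon kilobase (vertical log axis) of the 10 factors in wildtype (blue) and EVX1-Δfs (red) EBs, as the mean (point) and the range over 3 libraries (line). Hand1, Mesp1 and Tbx3 lead in both genotypes, and Nkx2-5 and Mef2c are the lowest.

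The wildtype libraries did not vary together across the factors. Wildtype replicate 2 was the highest of the 3 for Hand1, Tbx3, Tbx20, Gata4, Gata6 and Nkx2-5, whereas wildtype replicate 3 was the highest for Mesp1, Hand2 and Mef2c and the lowest for Hand1, Tbx3, Tbx20 and Isl1. Over all 6 libraries, which carry the genotype difference as well as the spread within groups, Pearson's r of the log2 values was 0.96 between Hand1 and Tbx3, 0.92 between Gata4 and Gata6, 0.73 between Hand1 and Mesp1, -0.43 between Hand1 and Hand2 and -0.53 between Mesp1 and Tbx20. Among 10629 tested genes whose mean was 50 normalized reads or more, those most like Hand1 were Fgd5, Fn1, Lama4, Lmo2 and Tmem119 (r from 0.990 to 0.992, n = 6 libraries). Fn1 encodes fibronectin, Lama4 a laminin chain and Lmo2 a cofactor of blood and endothelial progenitors. Tbx3 was number 49 in this order. Those most like Mesp1 were Ccdc102a, Mtss1l, Snai1, Pink1 and Zfpl1 (r from 0.994 to 0.996), of which Snai1 encodes a repressor of epithelial genes that acts as mesoderm leaves the streak. These correlations are descriptions, since all genes share the same 6 libraries.

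RefSeq promoters (GRCm38.p6) were examined for 6 of the 10 factors: Hand2, Mesp1, Isl1, Nkx2-5, Mef2c (at 3 starts) and Tbx20. Those of Hand1, Gata4, Gata6 and Tbx3 were not examined, so nothing is said of their letters. The 250 bases before each start were searched on both strands for the letters AGATAA or TGATAA (bound by GATA factors), GGTGTGA (T-box factors), CAGATG (an E-box of the bHLH class) and TAATTA (a homeodomain core). These occur in 16.6%, 3.33%, 14.4% and 4.84% of all 32851 promoters, respectively. Among the examined promoters of tested factors, those of Hand2, which was not called, and Isl1, whose groups did not overlap, carry such letters. Both are printed below with these letters in capitals.
Hand2, chr8:57320733-57320982, plus strand: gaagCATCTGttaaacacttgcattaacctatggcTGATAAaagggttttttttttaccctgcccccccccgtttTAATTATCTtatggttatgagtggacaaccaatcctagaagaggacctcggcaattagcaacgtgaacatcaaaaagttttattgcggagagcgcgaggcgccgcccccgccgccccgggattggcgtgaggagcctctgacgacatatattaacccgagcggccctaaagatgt
Isl1, chr13:116309689-116309938, minus strand: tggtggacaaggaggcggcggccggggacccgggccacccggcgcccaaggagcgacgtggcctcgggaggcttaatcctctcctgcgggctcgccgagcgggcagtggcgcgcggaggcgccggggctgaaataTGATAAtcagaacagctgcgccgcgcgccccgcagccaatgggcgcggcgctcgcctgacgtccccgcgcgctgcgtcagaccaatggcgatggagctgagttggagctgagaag

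In Hand2 the capitals mark an E-box that begins 246 bases before the start, a GATA match at 215, and a homeodomain core at 175 that overlaps a second GATA match at 172 on the other strand. In Isl1 they mark a GATA match at 115 bases before the start. The window of Mesp1, whose start differs between RefSeq and GENCODE vM1, is not used here. The windows of Nkx2-5 and Tbx20 held none of these letters, and those of Mef2c held a homeodomain core at 1 start and an E-box at another. A match in a window of this size is a description of its letters and no evidence of binding.

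Genes that work with the 10 factors were then examined in 4 lists (family relatives, cardiac cofactors, lateral plate factors and cardiac inducing signals), of which 76 genes were in the table and 63 were tested. Of these 63, limma called 20 lower and 3 higher in EVX1-Δfs EBs, against 2.95% lower and 2.08% higher among all genes tested. Tbx5, 1 of the 3 called higher, passed the filter on low values through the EVX1-Δfs libraries alone, so its call adds nothing to this comparison. The study names 11 of the 23 called genes from these same libraries. With the replicate as a block, 16 were called lower and 1 higher, against 1.11% lower and 0.579% higher among all genes tested. DESeq2 on the recovered reads called 20 lower and 2 higher, against 4.45% and 2.44% of all genes.

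Of the family relatives, 5 of 15 tested were lower and 1 was higher, with a median log2 fold change of -0.50. Of those called lower, Tbx2, the T-box gene most closely related to Tbx3, had the largest fold change. It counted 232, 379.6 and 219.8 in wildtype and 91.5, 121 and 101 in EVX1-Δfs libraries, a log2 fold change of -1.37 ± 0.19 (SE), for which limma gave an adjusted p of 1.8e-04. Mesp2, a paralogue of Mesp1 that acts in somite segmentation, differed by -0.95 on the log2 scale, at an adjusted p of 0.014 in limma (0.063 with the block). Gata2, a factor of blood progenitors, and Twist1, of mesenchyme, had log2 fold changes of -0.96 and -0.85, and Tbx6, a factor of paraxial mesoderm, fell to 49.2% of its wildtype mean. Leaving out replicate 3 of either genotype ended the call of Mesp2 (adjusted p up to 0.080), and leaving out EVX1-Δfs replicate 1 ended that of Twist1 (0.051).

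Tbx5, a factor of the first heart field and the forelimb, went the other way. It counted 6.70, 6.19 and 6.87 in wildtype and 23.3, 16.9 and 29.5 in EVX1-Δfs libraries, so the lowest EVX1-Δfs library was over the highest wildtype library. Its fold change on the log2 scale was 1.64 ± 0.39 (SE), at an adjusted p of 0.019 in limma (0.056 with the block). It passed the filter on low values through the EVX1-Δfs libraries alone, and DESeq2 gave it no adjusted p.

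Of the cardiac cofactors, 4 of 17 tested were lower and 0 higher, with a median of -0.13. At an unadjusted p under 0.05, 3 were higher, and DESeq2 and edgeR called 0 higher. Hey1, a Notch target of the atrial chamber, fell from 292 ± 18.7 to 154 ± 4.66 (SD, n = 3), or -0.92 on the log2 scale, and limma gave it an adjusted p of 5.5e-04. Foxh1, a mediator of nodal signals, had a log2 fold change of -0.62. Srf and Zfpm1, partners of cardiac factors, had log2 fold changes of -0.47 and -0.44, at adjusted p in limma of 0.022 and 0.034, which were 0.059 and 0.069 with the block. With GC and length trends removed, Foxh1, Srf and Zfpm1 had adjusted p of 0.055, 0.15 and 0.35, and the call was lost for Srf without replicate 3 of either genotype and without EVX1-Δfs replicate 1 (up to 0.082) and for Zfpm1 in every such fit but the one without EVX1-Δfs replicate 2 (up to 0.20).

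Of the lateral plate factors, 6 of 12 tested were lower and 1 was higher, with a median of -0.54. Kdr, the VEGF receptor that marks lateral and cardiovascular mesoderm, fell from 1987 ± 385 to 1048 ± 71.1 (SD, n = 3), or -0.91 on the log2 scale, and limma gave it an adjusted p of 2.0e-04. Snai1, Foxf1, Lmo2 and Bmp4 had log2 fold changes of -0.90, -0.89, -0.64 and -0.62, of which Foxf1 had an adjusted p of 0.057 with the block. Cfc1, a co-receptor of nodal signals, rose from 90.4 ± 14.7 to 152 ± 8.12 (SD, n = 3). Msx1, the most abundant gene of this list, was higher in means without passing the test (0.38 on the log2 scale at an adjusted p of 0.053 in limma), and Pdgfra, a receptor of cardiac and paraxial mesoderm, had a log2 fold change of 0.08 (adjusted p of 0.76 in limma). Calls were lost without wildtype replicate 2 or EVX1-Δfs replicate 1 for Bmp4 (adjusted p up to 0.11), Lmo2 (0.080) and Foxf1 (0.089, also without EVX1-Δfs replicate 2), and without EVX1-Δfs replicate 3 for Cfc1 (0.058, also without wildtype replicate 1 or EVX1-Δfs replicate 2). With GC and length trends removed, Bmp4 and Lmo2 had adjusted p of 0.055 and 0.071.

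Of 20 genes for cardiac inducing signals, all of them tested, 6 were lower and 1 was higher, with a median of -0.21. Wnt2, Wnt5a, Cxcr4, Fgf10, Bmp4 and Wnt3 had log2 fold changes of -1.26, -1.04, -0.78, -0.74, -0.62 and -0.55. Bmp5, a ligand of the BMP family, had one of 1.05 at an adjusted p of 0.037 in limma (0.073 with the block). Tdgf1, the most abundant, had a log2 fold change of -0.05, and the BMP receptors and SMAD genes on the list (Acvr1, Bmpr1a, Bmpr2, Smad1, Smad5 and Smad9) were not called, with log2 fold changes from -0.76 to 0.37. Of the fits that left out a library, only the one without wildtype replicate 2 called Bmp5 (adjusted p up to 0.15 in the others), and with GC and length trends removed its adjusted p was 0.13. Without EVX1-Δfs replicate 1, Fgf10, Wnt2 and Cxcr4 were not called (adjusted p up to 0.080, 0.059 and 0.15), nor were Wnt2 and Cxcr4 without wildtype replicate 3, or Cxcr4 without wildtype replicate 2 or EVX1-Δfs replicate 3.

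**Figure D5:**
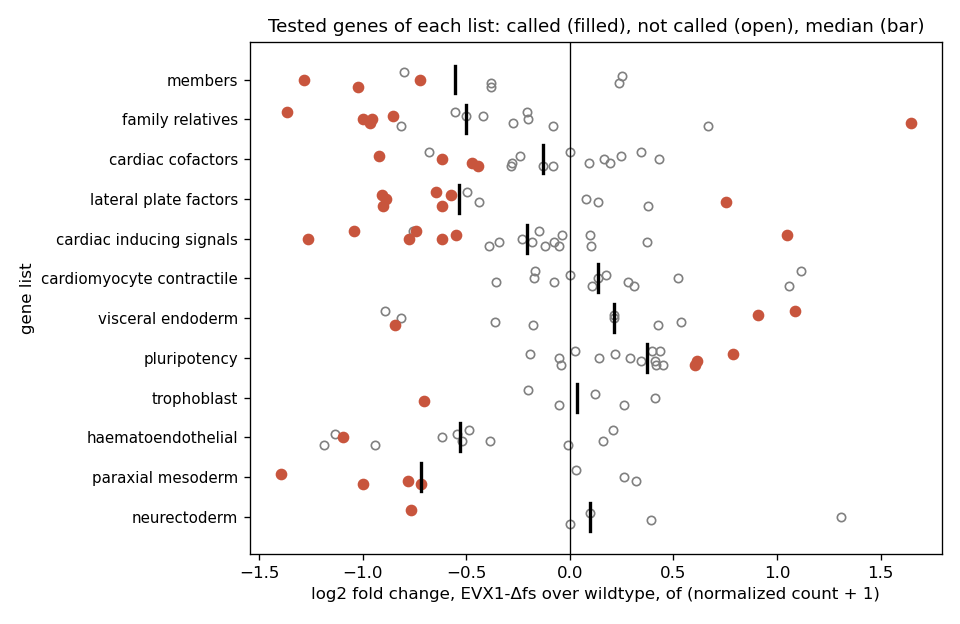
Log2 fold change of EVX1-Δfs over wildtype (horizontal axis) of each tested gene in the 10 factors (top row, members) and in each gene list, called genes filled and others open, with a bar at the list median. The median is -0.55 for the 10 factors (8 tested), -0.54 for lateral plate factors and 0.14 for cardiomyocyte contractile genes.

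Contractile genes of heart muscle were read in the same fit, in which limma called 2.95% of all genes tested lower and 2.08% higher. Of 13 tested, limma, DESeq2 and edgeR called 0 in either direction (0 lower and 2 higher at an unadjusted p under 0.05), with a median log2 fold change of 0.14. Neither Myh7, 1 of these 2, nor Myl3 would have passed the filter on low values through the wildtype libraries alone. Their fold changes were above 0 and enter the median, so they add nothing to a direction. Myh6, the alpha myosin heavy chain, counted 84.2, 61.9 and 142 in wildtype and 99.0, 81.2 and 92.4 in EVX1-Δfs libraries, and the groups overlapped. Tnnt2, cardiac troponin T, was at 1.87 to 5.31 and Myl2, a ventricular myosin light chain, at 2.87 to 5.72 over the 6 libraries, and Pln had 0 reads in all libraries, so these 3 genes were at or near 0 in both genotypes. Other heart muscle genes of the list were present, such as Actc1 (129 to 177), Tnni3 (85.9 to 151), Myl7 (38.9 to 76.7) and Ttn (35.5 to 51.5). A count of 0 allows up to 3 reads in a library.

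Markers of other cells that express these factors were read beside them. Among all genes, limma called 2.95% lower and 2.08% higher, DESeq2 4.45% and 2.44%, and edgeR 2.91% and 2.39%. At an unadjusted p under 0.05 in limma, the shares were 12.4% lower and 10.7% higher. Of 20 visceral endoderm genes, which bear on Gata4 and Gata6, 11 were tested, 1 was lower (Cited1) and 2 were higher (Foxa2 and Sox17, at adjusted p of 0.067 and 0.056 with the replicate block, which called 0 higher), and the summed normalized counts ran from 6882 to 8815 in wildtype and from 6225 to 7363 in EVX1-Δfs libraries. Their defining genes Afp and Ttr were at most 1.91 in any library. Of 16 pluripotency genes, which bear on Tbx3, limma called 0 lower (0 at an unadjusted p under 0.05, and 0 by DESeq2 and edgeR) and 3 higher (Tfcp2l1, Fgf4 and Fgf5), whereas 8 were higher at an unadjusted p under 0.05 and DESeq2 and edgeR each called 7 higher. With the replicate block these 3 had adjusted p of 0.057, 0.058 and 0.062, and Fgf5 had one of 0.058 with GC and length trends removed. The pluripotency list had a median log2 fold change of 0.37 and sums of 20911 to 30291 in wildtype and 25096 to 30189 in EVX1-Δfs libraries. Pou5f1, Dnmt3b and Tdgf1 had the highest wildtype means of this list (7544, 5389 and 4928). The sums mostly follow these 3 and say little of its less abundant genes. Of 12 trophoblast genes, which bear on Hand1, 6 were tested and 1 was lower (Cdx2, which the posterior streak also expresses), and the giant cell genes Prl3d1 and Prl2c2 had 0 reads in all libraries. The sum of this list ran from 1071 to 1235 in wildtype and from 861 to 915 in EVX1-Δfs libraries. Without Cdx2 the sums overlapped, at 542 to 648 and 530.1 to 588. Leaving out the only called gene of the list was bound to narrow the gap, so no conclusion is drawn from this overlap. The part of these cells in the values of Gata4, Gata6, Tbx3 and Hand1 was not tested. Of the called markers here, Cited1 and Cdx2 were called in all 6 fits that left out a library, and Foxa2 in 4, Fgf4 in 3, and Sox17, Tfcp2l1 and Fgf5 in 2 each. The study names Cited1, Cdx2, Foxa2 and Sox17 from these same libraries, so their calls are not independent evidence of a direction. It places Cited1 and Cdx2 with posterior mesoderm patterning, and Foxa2 and Sox17 with anterior visceral endoderm, anterior mesendoderm or epiblast.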

How the data were processed

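Day 4 EBs of 3 wildtype and 3 EVX1-Δfs differentiations were profiled by mRNA-seq on the Ion Proton. Per the labels and methods, reads were mapped by the authors to mm9 with TopHat2 and TMAP and counted with HTSeq. Versions and annotation are not given in the sources used here. The deposited values are a signal, normalized counts: each library's reads for a gene over that library's own scaling factor, as the authors applied it. All values (100%) were whole multiples of the smallest step within 0.001, so whole reads were recovered.

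The test was limma (3.58.1, R 4.3.3, mean-variance trend) on log2(normalized count + 1), over genes with at least 10 in at least 3 libraries (13136 genes), with Benjamini-Hochberg adjustment over all of them. Fold changes on this scale understate the change of low genes. DESeq2 (1.42.0) and edgeR (4.0.16) were run on the recovered reads, and the fits were tested on simulated data. The members, lists and tests were chosen with earlier results of these data known. Named were the 10 factors, list genes that were called, and the 5 genes most correlated with Hand1 and with Mesp1. Of the genes that led their list in mean count without being called, only some were named (Msx1, Tdgf1 and Pou5f1). Others (Pdgfra, receptor and SMAD genes, Tnnt2, Myh6, Myl2, Pln and cell type markers that were not called) were named after their values were seen. The values of 1 list gene are not reported here.

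Gene positions and exon lengths came from GENCODE vM1 on NCBIM37, the assembly of mm9, where 21245 of 23353 symbols matched (91.0%). The series' design text and growth protocol place the compared differentiations on a shared day, a new one for each replicate. Equal replicate numbers were read as a shared day and taken as pairs, which no label states outright. Their deviations from the group means correlated at 0.111, 0.00933 and -0.101 across 13136 genes. Alternatives were the block, other tools, scalings, pseudocounts, filters, removal of GC and length trends (splines of 5 degrees of freedom per library) and leaving out each library.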

Additional observations from a re-analysis of the deposited data

How the results depend on the processing

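The calls of Hand1, Mesp1 and Tbx3 held in all 18 alternatives, with log2 fold changes from -1.46 to -1.05, from -1.13 to -0.82 and from -0.81 to -0.57. The replicate block changed no call of the 10 factors. Isl1 was called with a pseudocount of 16 (adjusted p 0.046) and when EVX1-Δfs replicate 2 was left out (0.035), which made 4 factors lower, and the 6 fits without 1 library gave 3 to 4 lower and 0 higher. Gata4 and Gata6 were called in none of the 18. Hand2 and Tbx20 turned below 0 once each, at -0.0396 without wildtype replicate 1 and -0.0687 without wildtype replicate 3, with highest values of 0.53 and 0.48. The counts over all genes moved most: 146 lower and 76 higher with the replicate block in limma, 207 and 77 with the block in DESeq2, 175 and 98 with GC and length trends removed, and 121 and 56 with both, against 387 and 273. Across the 6 fits that left out 1 library they ran from 138 (without EVX1-Δfs replicate 1) to 355 lower and from 77 (without EVX1-Δfs replicate 3) to 332 higher. Upper-quartile scaling gave 325 lower and 370 higher. For the 4 lists beside the factors, 12 genes were lower with the block and trends removed, 1 was higher with the block and 0 with the block in DESeq2, and the fits without 1 library gave 11 (without EVX1-Δfs replicate 1) to 21 lower and 0 (without EVX1-Δfs replicate 2, and also without replicate 3) to 4 higher. Of the 23 list genes called, 9 kept the call in all 6 such fits (Foxh1, Gata2, Hey1, Kdr, Snai1, Tbx2, Tbx6, Wnt3 and Wnt5a) and 13 lost it in at least 1. Tbx5 fell under the filter on low values in 3 of the 6, so these fits say nothing of its stability. For all of these shifts the cause was not tested. Depth limited Nkx2-5 and Mef2c, with at most 15 reads in a library.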

Other observations

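Markers of neighbouring tissues were read in the same fit, in which limma called 2.95% of all genes tested lower and 2.08% higher. Of 14 paraxial mesoderm genes, 7 were tested and limma called 4 lower (Msgn1, Tbx6, Dll3 and Dll1) and 0 higher in EVX1-Δfs EBs (0 at an unadjusted p under 0.05, and 0 by DESeq2 and edgeR), with a median log2 fold change of -0.72. Msgn1, a bHLH factor of presomitic mesoderm, was at 209.5 ± 12.5 (SD, n = 3) in wildtype and fell to 82.3 ± 28.3. Dll1 had an adjusted p of 0.073 with the replicate block and was called in 0 of the 6 limma fits that left out 1 library. Tcf15, a factor of somites, had a log2 fold change of 0.32 and was not called (adjusted p of 0.43 in limma).

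Of 16 haematoendothelial genes, 12 were tested and limma called 1 lower (Etv2, the initiator of blood and vessel progenitors) and 0 higher (0 at an unadjusted p under 0.05, and 0 by DESeq2 and edgeR), with a median of -0.53. The normalized count of Etv2 was 629.6 ± 51.1 (SD, n = 3) in wildtype and fell to 295 ± 43.1, a difference of -1.10 on the log2 scale. At an unadjusted p under 0.05, 6 of the 12 were lower, and DESeq2 and edgeR each called 2 lower. Lyl1, 1 of these 6, passed the filter on low values through the wildtype libraries alone, so it adds nothing to this count. Among all genes tested, limma called 2.95% lower and 2.08% higher, and 12.4% were lower and 10.7% higher at the unadjusted threshold. DESeq2 called 4.45% and edgeR 2.91% of all genes lower. Of 14 neurectoderm genes, 5 were tested, 1 was called lower (Sox3, -0.77 on the log2 scale, adjusted p of 0.037 in limma and 0.086 with the replicate block) and 0 higher, although 2 were higher at an unadjusted p under 0.05, with 0 by DESeq2 and edgeR. Pax6, 1 of these 2, would not have passed the filter on low values through the wildtype libraries alone, so it adds nothing to this count. Sox3 was called in 2 of the 6 fits that left out a library.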
